A study of Homo sapiens with 6 samples.

Results

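The regions described here are m6A peaks of U-251 MG cells, an established human glioblastoma line, that were listed after knockdown of TRA2A and in neither other condition of the study. They were chosen by the peak positions themselves. A peak of the shTRA2A list was taken if it shared no base on its strand with any peak of the shMETTL3 list or the shNC list. The rule left 1595 of 2736 shTRA2A peaks, 58.3%, and of 17375 peaks in the 3 lists together. Applied in the same way to the other lists, it left 3454 of 5433 shMETTL3 peaks, 63.6%, and 7135 of 9206 shNC peaks, 77.5%. The lists differ in length and no allowance was made for this, so nothing is read from these shares.

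The 3 conditions were U-251 MG cells with a short hairpin RNA against TRA2A (shTRA2A), with a hairpin against METTL3 (shMETTL3) and with the control hairpin (shNC). Each had 1 library of RNA pulled down with an m6A antibody and 1 input library, 6 in all, and 1 peak list. No condition was replicated, so no test between conditions was made. Intervals are exact Clopper-Pearson 95% intervals that cover counting error alone and treat peaks as independent, although peaks of the same gene are not. No source used here gives the reads per library, the peak caller or its thresholds, so a peak on a single list cannot be told apart from a peak that missed the threshold in the others. Each list carries a score per peak, given by the authors, of unstated scale. It is used here to rank peaks within a list and never between lists.

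N6-methyladenosine is the most common internal mark of messenger RNA. It is placed by a writer complex whose catalytic subunit is METTL3, mostly on adenosines in a short consensus and mainly in long internal exons and around stop codons, and it is removed by demethylases and bound by reader proteins that affect splicing, decay and translation. TRA2A is an SR-like protein that binds purine-rich exonic RNA and promotes exon inclusion. The title of the series ties it to m6A on transcripts of the interferon-induced IFIT family and to recycling of EGFR, a growth factor receptor.

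For 8 of the peaks the whole sequence could be read from RefSeq promoter windows on GRCh38.p14, each of 250 nt before to 50 nt after a gene's start. They are shown because they let the RNA letters under such peaks be seen, and they were selected by position, not by score. Each sequence runs 5′ to 3′ on the strand of its peak. Capitals mark the m6A consensus DRACH, a central AC with a purine before it, any base but C before that and any base but G after it. It was searched on the strand of the peak alone, with overlapping matches counted.
EPHA5 (chr4:65669588-65669637, minus strand): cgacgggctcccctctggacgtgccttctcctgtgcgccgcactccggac
Upstream of FADS1 (chr11:61817122-61817196, minus strand): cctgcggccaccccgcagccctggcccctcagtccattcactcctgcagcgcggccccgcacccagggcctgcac
GOLGA3 (chr12:132828365-132828414, minus strand): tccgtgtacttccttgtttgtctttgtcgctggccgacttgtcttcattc
Upstream of LINC00526 (chr18:5238152-5238201, minus strand): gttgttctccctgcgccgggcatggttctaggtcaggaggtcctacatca
NR2F2 (chr15:96332385-96332434, plus strand): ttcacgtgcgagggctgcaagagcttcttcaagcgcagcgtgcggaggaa
NR2F2 (chr15:96332485-96332559, plus strand): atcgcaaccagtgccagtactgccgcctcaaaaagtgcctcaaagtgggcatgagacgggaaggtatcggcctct
SHROOM3-AS1 (chr4:76802080-76802154, minus strand): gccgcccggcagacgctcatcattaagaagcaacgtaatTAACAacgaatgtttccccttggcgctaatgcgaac
TMEM59 (chr1:54053331-54053380, minus strand): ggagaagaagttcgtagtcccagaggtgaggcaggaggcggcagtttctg
The peaks in the FADS1 and LINC00526 windows lie before the 5′ ends of those genes, outside the gene bodies, and were assigned to no gene. The consensus was found in 1 of the 8, the peak of SHROOM3-AS1, a long non-coding RNA. It was found in 0 of the 5 peaks of 50 nt and 1 of the 3 peaks of 75 nt. Of all 50 nt segments of the promoter windows 50.5% held it, and of all 75 nt segments 64.8%. So few windows describe these peaks alone, and a lack of the letters says nothing about methylation nearby. Both NR2F2 peaks shown lie in the body of that gene, which encodes an orphan nuclear receptor, in the window of a start within it, and had scores of 8.09 and 7.57. The peaks of TMEM59, a Golgi and endosome membrane protein, and EPHA5, an ephrin receptor, had scores of 7.72 and 8.44, and that of SHROOM3-AS1 had 14.2. Of the shTRA2A-only peaks 47 touched a promoter window on their own strand, 2.95% (2.17 to 3.90%). Of the other shTRA2A peaks 2.19% (1.42 to 3.22%) did, of the shMETTL3-only peaks 3.76% (3.15 to 4.45%), and of the shNC-only peaks 1.28% (1.03 to 1.56%). The interval of the shTRA2A-only peaks overlapped those of the other shTRA2A and shMETTL3-only peaks and not that of the shNC-only peaks.

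The shTRA2A-only peaks were mostly low in the score ranking of their own list. Their scores ran from 3.39 to 29.4 with a median of 7.86, beside 3.8 to 54.5 with a median of 8.36 for the other 1141 shTRA2A peaks. In the lowest quintile of the list by score 71.5% (67.5 to 75.2%) of peaks were shTRA2A-only, in the middle quintile 61.2% (57 to 65.3%) and in the highest 32.3% (28.4 to 36.4%). Of the 100 best peaks 15 were. The share did not move evenly, since the second quintile was at 75.7% (71.9 to 79.3%). Exact ties were common in the whole list, as 67.3% (65.0 to 69.6%) of the shTRA2A-only peaks and 61.7% (58.8 to 64.5%) of the other shTRA2A peaks have the score of another peak of the list. As the rule sorted these same peaks, the contrast of scores is a description and was not tested.

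**Figure D1:**
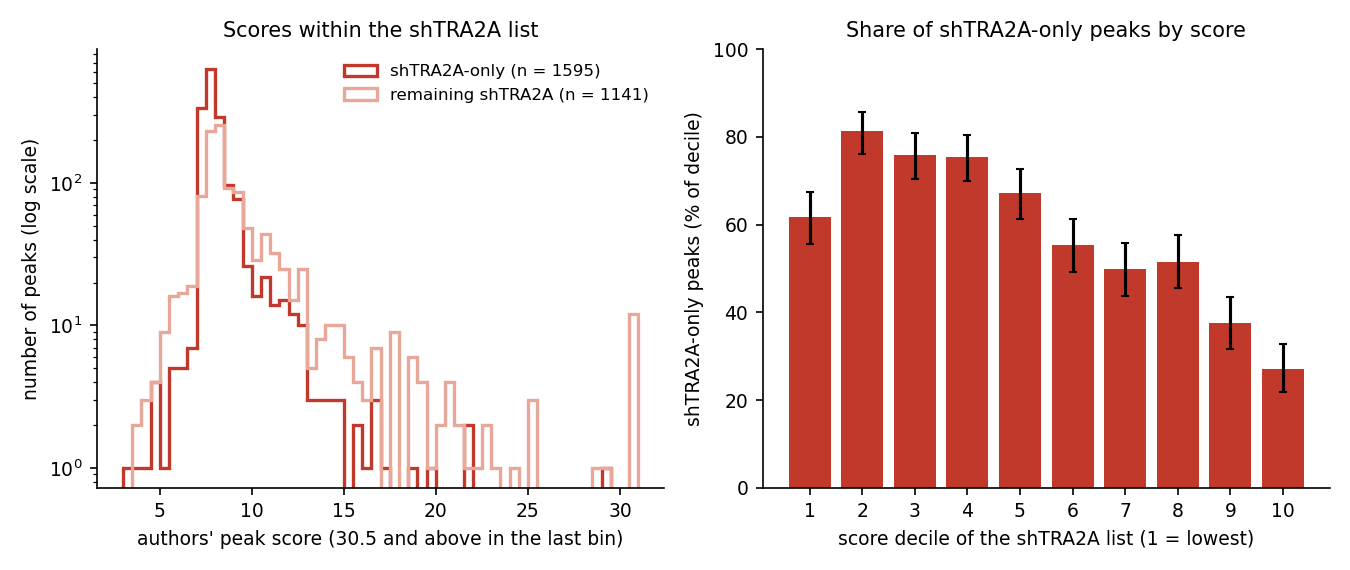
Left, histogram of the authors' score for the 1595 shTRA2A-only peaks and the 1141 other peaks of the shTRA2A list, with the number of peaks on a log axis. Right, percent of peaks in each score decile of that list that are shTRA2A-only, with exact 95% intervals; the bars are lowest in the top decile.

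Narrow and very wide calls were both common. Of the shTRA2A-only peaks 468 were 50 nt wide, 29.3%, and 276 were 75 nt wide, 17.3%, while the widest spanned 9979 nt. Peaks of 1 block, at most 1000 nt wide and a multiple of 25 nt wide are called regular here. Irregular calls made up 641 of the 1595, 40.2% (37.8 to 42.6%), with a median width of 2685 nt. They made up 23.9% (21.5 to 26.5%) of the other shTRA2A peaks, 36.9% (35.2 to 38.5%) of the shMETTL3-only peaks and 18.6% (17.7 to 19.5%) of the shNC-only peaks. The annotation used has gene bodies without exons, so how much of such a span is intron could not be measured. Examples among the best scores are CLPTM1L, HOXD11 and IFITM10, described below.

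Peaks on the edge of the rule show how much it turns on a few bases. At its inner edge 68 peaks touched a peak of another list end to end without sharing a base, among them HOXD11 (score 21.8), PWP1 (chr12:107688662-107688761, score 11.6) and PHF3 (chr6:63680064-63684205, score 9.98). Just outside it, 80 shTRA2A peaks shared only 25 nt with another list and were not taken, such as ZBTB47 (chr3:42659088-42659412, score 18.7), CENPB (chr20:3785001-3785175, score 15.6) and HUWE1 (chrX:53561821-53561895, score 13.4). Of the shTRA2A-only peaks 202 lay within 100 nt of a same-strand peak of another list, 12.7% (11.1 to 14.4%), and 439 within 1000 nt, 27.5%. The median distance was 11200 nt, with quartiles at 675 and 86500 nt. On the opposite strand 21 of the peaks, 1.32% (0.817 to 2.01%), overlapped a peak of another list, beside 7.54% (6.07 to 9.22%) of the other shTRA2A peaks, 1.33% of the shMETTL3-only peaks and 0.995% of the shNC-only peaks.

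**Figure D2:**
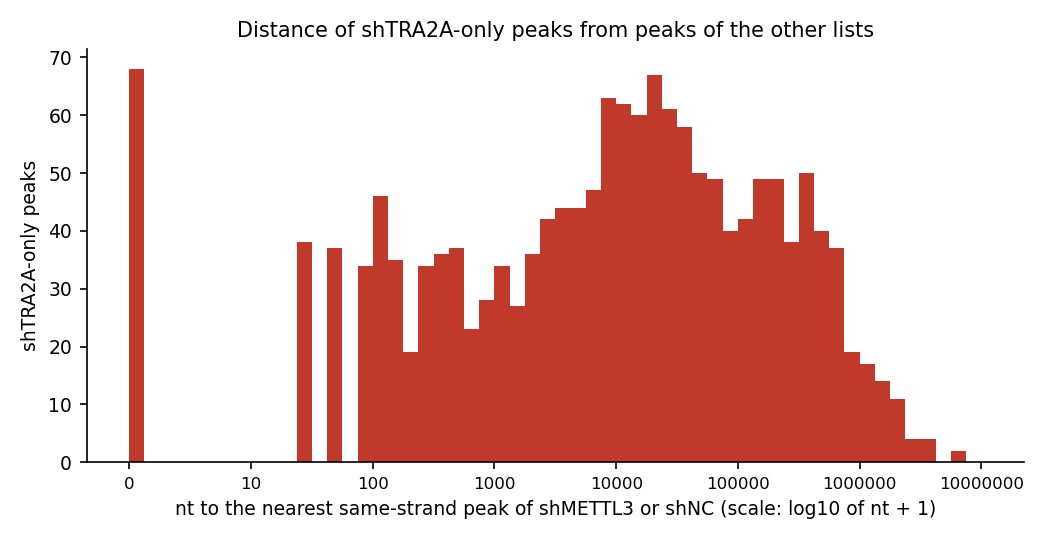
Number of shTRA2A-only peaks by their distance in nt from the nearest shMETTL3 or shNC peak on the same strand, on a log10 scale of nt + 1. The column at 0 holds the 68 peaks that touch one end to end, and the median is 11200 nt.

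Most of the peaks were in genes that held other peaks. A gene was assigned to 1499 of the 1595, 1427 of them in coding and 72 in long non-coding genes, and 37 touched only genes of the opposite strand. The 1499 lay in 1252 genes. Of these peaks 523, 34.9%, were in genes with peaks in both other lists, 179, 11.9%, in genes with another peak in shMETTL3 alone, 292, 19.5%, in genes with one in shNC alone, and 505, 33.7% (31.3 to 36.1%), in genes with none. By gene, 457 of the 1252, 36.5%, had a peak in neither other list. Among shMETTL3-only peaks 41.6% (39.9 to 43.3%) and among shNC-only peaks 43.8% (42.6 to 45%) were in genes without a peak in another list. The lists searched for another peak differ in length and together are longest for the shTRA2A-only peaks, so nothing is read from these differences. Beyond 10000 nt from any peak of another list, 37.2% (33.7 to 40.7%) of 764 assigned peaks were still in a gene with such a peak. A gene mostly held a single shTRA2A-only peak, as 1050 genes did, 83.9%, while 168 held 2, 24 held 3, 9 held 4 and 1 held 5.

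Along gene bodies the shTRA2A-only peaks leaned less to the 3′ end than control-only peaks. The midpoint was in the last 25% of the body for 41.2% (38.7 to 43.8%), against 55.5% (54.3 to 56.6%) of shNC-only peaks, and in the first 25% for 19.2% (17.2 to 21.3%), against 12.9% (12.2 to 13.8%). Neither pair of intervals overlapped. The shMETTL3-only peaks had 43.8% (42.1 to 45.6%) and 18.7% (17.4 to 20.1%), with intervals that overlapped those of the shTRA2A-only peaks. The other shTRA2A peaks had 48.2% (45.2 to 51.3%) in the last and 15.1% (13.0 to 17.4%) in the first 25%.

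Near the ends themselves the shTRA2A-only peaks again lay beside the shMETTL3-only peaks at the 5′ end. Within 1000 nt of the 5′ end lay 6.74% (5.52 to 8.13%) of the shTRA2A-only peaks and 7.28% (6.42 to 8.22%) of the shMETTL3-only peaks, against 3.62% (3.19 to 4.09%) of the shNC-only peaks. Within 1000 nt of the 3′ end lay 6.60% (5.40 to 7.98%) of the shTRA2A-only peaks and 8.5% (7.57 to 9.51%) of the shMETTL3-only peaks, against 10.2% (9.50 to 11%) of the shNC-only peaks. The other shTRA2A peaks had 4.8% (3.6 to 6.24%) near the 5′ end and 7.2% (5.73 to 8.9%) near the 3′ end. Both of these intervals overlapped those of the shTRA2A-only peaks. The share of irregular spans differs between these lists too, as given above. Among regular peaks alone the 3′ shares were 10.3% (8.43 to 12.5%) for shTRA2A-only and 12.1% (11.3 to 13.0%) for shNC-only peaks, with intervals that overlapped, while the 5′ intervals did not, at 9.12% (7.32 to 11.2%) of shTRA2A-only and 3.86% (3.37 to 4.40%) of shNC-only peaks. The 5′ share of regular shMETTL3-only peaks was 9.22% (8.01 to 10.5%), and that of the other regular shTRA2A peaks was 5.18% (3.77 to 6.92%).

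**Figure D3:**
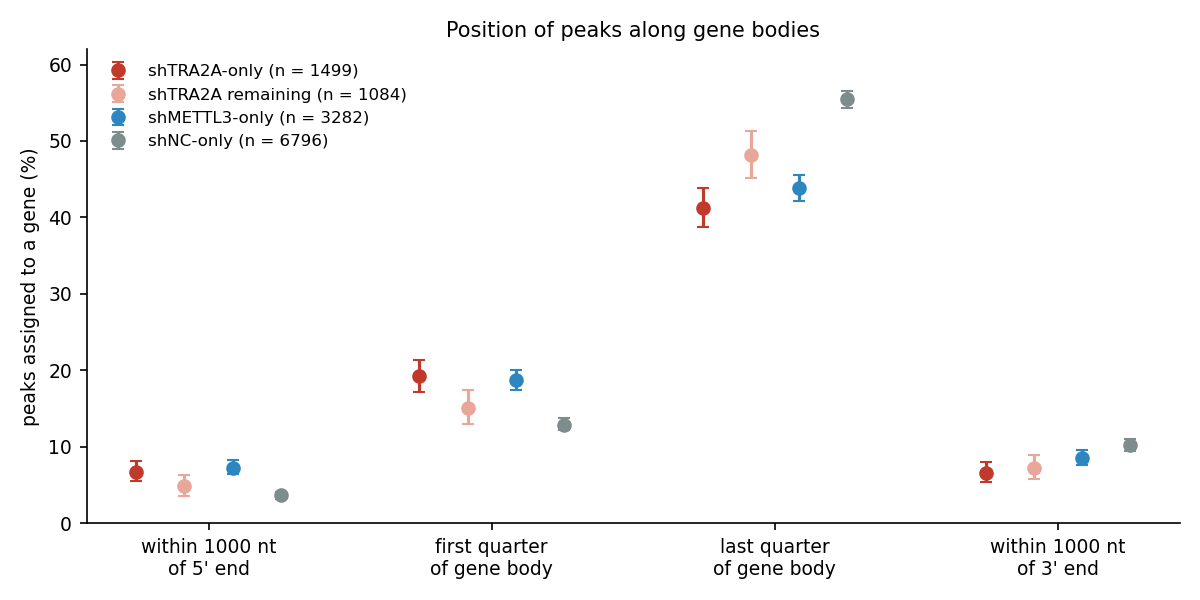
Percent of gene-assigned peaks near the 5′ end, in the first and last 25% of the gene body and near the 3′ end, for shTRA2A-only, other shTRA2A, shMETTL3-only and shNC-only peaks, with exact 95% intervals. In the last 25% the shTRA2A-only peaks are at 41.2% and the shNC-only peaks at 55.5%.

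Among the genes with no peak in another list, the best shTRA2A-only score was that of COPG2, a subunit of the COPI vesicle coat. Its 50 nt peak at chr7:130546807-130546856 on the minus strand (score 29.4) was 334609 nt from any peak of another list on that strand. Next came GPR84-AS1, a long non-coding RNA gene, with 2 peaks of 75 nt at chr12:54409660-54409734 (score 14.8) and chr12:54466865-54466939 (score 14.7). TRIM65, a ubiquitin ligase linked to antiviral sensing, had a span of 3799 nt (score 13.3). In TMEM45A, a transmembrane protein gene, peaks of 50 and 75 nt both had a score of 12.8, the first 250 nt from the 5′ end of the gene. CLN6, an endoplasmic reticulum protein lost in a form of neuronal ceroid lipofuscinosis, had peaks with scores of 12.7 and 11.4.

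The other genes of this group had 1 or 2 peaks each, and the best peak of each gene had a score of 11.7 to 12.5. They were DDRGK1 (12.5), an adaptor of protein ufmylation, CNN2 (12.3), the actin-binding calponin 2, PELP1 (12.3), a nuclear receptor coactivator, FLII (12.2), an actin regulator of the gelsolin family, IQCB1 (12), a ciliary protein, PANK3 (11.9), a pantothenate kinase of coenzyme A synthesis, and CUEDC1 (11.7). PELP1 had a second peak 75 nt away, at chr17:4672008-4672057 (score 8.02), beside chr17:4672133-4672307. The peaks of CUEDC1 were on opposite strands, and the strand of that gene is not in the tables used.

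The best-scoring shTRA2A-only peaks in genes that another list also holds were those of CLPTM1L and HOXD11, which shared a score of 21.8. CLPTM1L, a membrane protein gene, had a 3943 nt span at chr5:1326351-1330293 and 1 shNC peak. The HOXD11 peak, at chr2:176104541-176107368, lies largely upstream of that homeobox gene and ends at the base before a 75 nt shNC peak. ZNF841, a zinc finger gene, had a 1644 nt span at its 5′ end (score 18.7), beside 1 shMETTL3 and 3 shNC peaks. IFITM10, of the interferon-induced transmembrane family, had a span of 9104 nt (score 16.8).

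Secreted growth factors were among them. CSF1, the macrophage colony-stimulating factor, had a 325 nt peak at chr1:109929130-109929454 (score 17.3), 275 nt from the gene's 1 shMETTL3 peak and with no shNC peak. VEGFA, the angiogenic growth factor, had a 50 nt peak at chr6:43784857-43784906 (score 16.8), 100 nt from the nearer of 2 shMETTL3 peaks, and 1 shNC peak at chr6:43785757-43785806. All 4 VEGFA peaks lie within 1606 nt of the 3′ end of the gene by their midpoints and none overlaps another across lists.

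Some of these peaks sat in clusters of other peaks. CALD1, the actin-binding caldesmon, had 7 shTRA2A peaks, 2 of them shTRA2A-only, at chr7:134933014-134933088 (score 16.3) and chr7:134933689-134933738 (score 8.43). The second of these begins at the base after an shNC peak of 225 nt. OGFR, the opioid growth factor receptor, had peaks with scores of 15.8 and 9.20, and ZC3H18, a nuclear RNA-processing factor, had peaks with scores of 14.7 and 8.5 the first 31533 nt from any peak of another list. RTEL1, a telomere helicase, had a 4361 nt span (score 15.6), and SHROOM3-AS1 had 2 peaks of 75 nt, both with a score of 14.2, and 1 shNC peak.

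The gene with the most shTRA2A-only peaks was PLEC, which encodes the cytoskeletal linker plectin, with 5, against 2 shMETTL3 peaks and 1 shNC peak. All 5 shTRA2A peaks of the gene were shTRA2A-only, with widths of 50 to 300 nt and scores of 7.77 to 16.5. MFN2, a mitochondrial fusion GTPase, had 4, of 50 to 100 nt, with scores of 7.57 to 9.17, against 1 shMETTL3 and 0 shNC peaks. LTV1, a factor of small ribosomal subunit assembly, had 4, of which the last, at chr6:143863163-143863237 (score 8.70), ends at the base before an shMETTL3 peak of 280 nt and 25 nt before an shNC peak of 305 nt. The first of them is a span of 8766 nt that begins upstream of the gene and contains the second.

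In IRS1, the insulin receptor substrate, 4 shTRA2A-only peaks (scores 7.37 to 9.04) lay within 3914 nt of the 5′ end by their midpoints. Within 4589 nt of that end shMETTL3 had 2 and shNC had 5 peaks, none sharing a base with them. The fifth shTRA2A peak of IRS1, 4830 nt from the 3′ end, lay inside a 200 nt peak that shMETTL3 and shNC list at the same bases. The site near the 3′ end was in all 3 lists, and the peaks near the 5′ end interleaved. ABL2, a tyrosine kinase, had 4 (scores 7.54 to 8.93), 3 of them between an shNC peak of 500 nt and one of 50 nt. MIDEAS, part of a histone deacetylase complex, had 4 narrow ones (scores 7.32 to 7.90), all upstream in the transcript of its 3 shNC peaks.

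TENM2, a teneurin adhesion protein, had 7 shTRA2A peaks, 4 of them shTRA2A-only (scores 7.93 to 8.94) and 2 on peaks of both other lists and 1 on an shNC peak, all but 1 of the 7 within 1767 nt of the 3′ end. MYCBP2, a large ubiquitin ligase, had 4 of its 5 (scores 7.58 to 10.4), spread over the gene. DST, the spectraplakin dystonin, had 4 of its 6, against 8 shMETTL3 and 25 shNC peaks. BCL9L, a Wnt coactivator, also had 4. Of these, 2 abut each other on opposite strands, at chr11:118925214-118925263 (plus, score 8.48) and chr11:118925264-118925313 (minus, score 11), and the strand of the gene is not in the tables used.

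**Figure D4:**
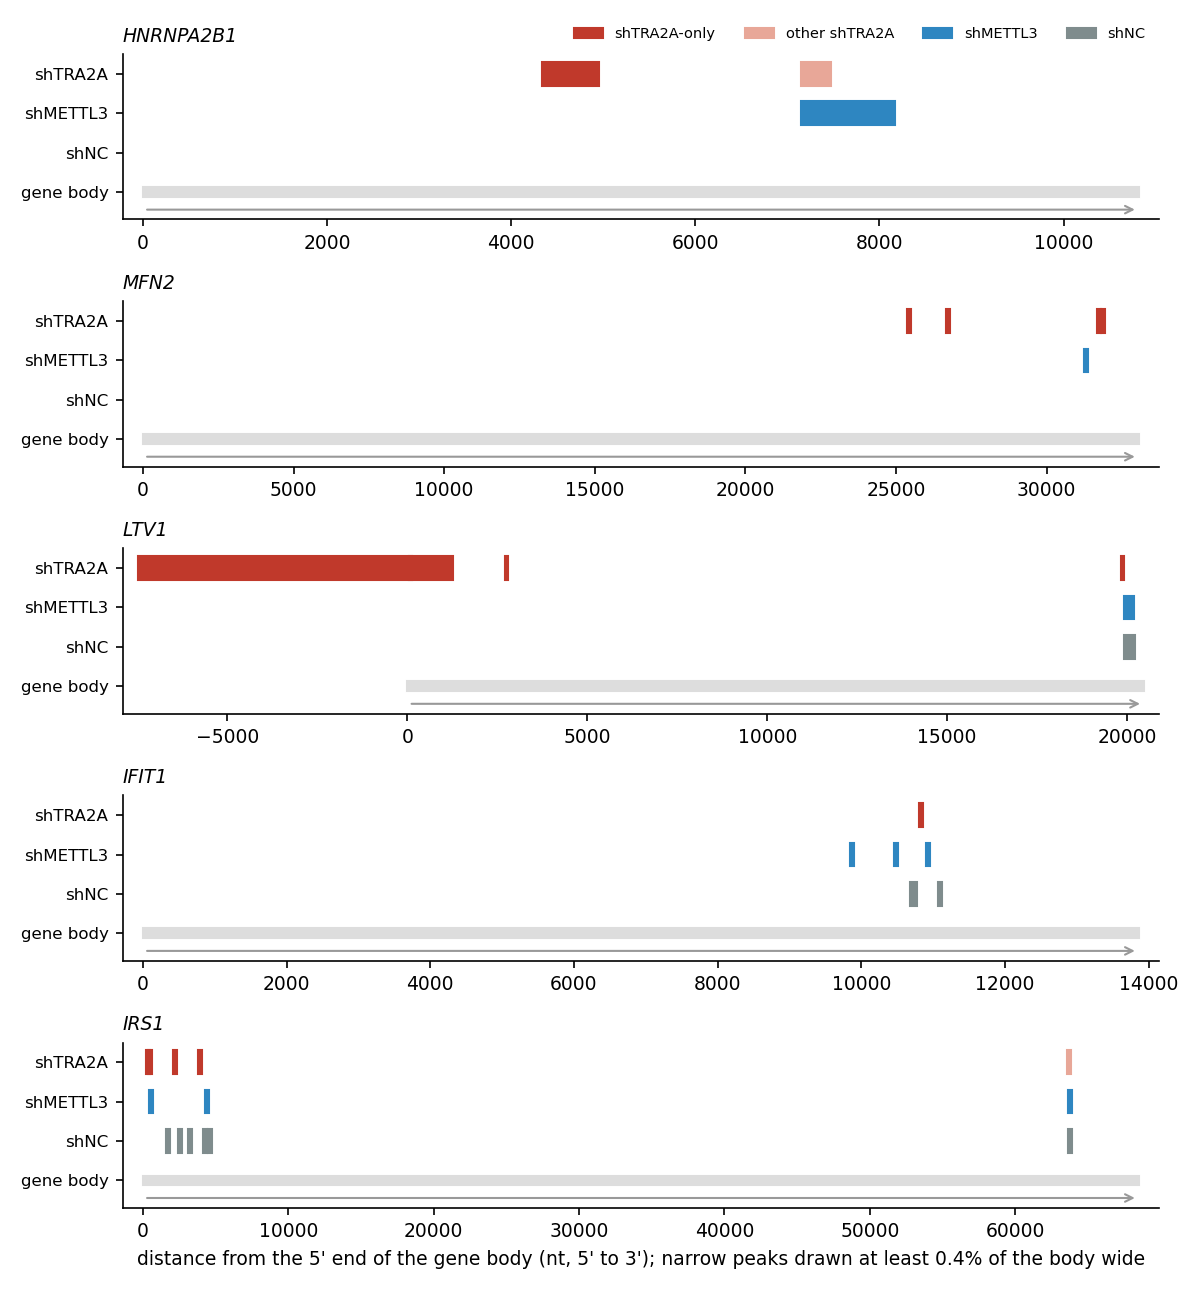
Peaks of the 3 lists along HNRNPA2B1, MFN2, LTV1, IFIT1 and IRS1, as distance in nt from the 5′ end of each gene body, with shTRA2A-only peaks in dark red and other shTRA2A peaks in light red. Peaks less than 100 nt apart merge in the drawing, as the 2 shTRA2A-only peaks of HNRNPA2B1 and the last 2 of MFN2 do; HNRNPA2B1 and MFN2 have no shNC peak.

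Gene groups were compared by counting genes, with the share over all genes beside them. Of the 1868 genes with an shTRA2A peak, 67.0% had an shTRA2A-only peak, and of the 6105 genes with a peak in any list, 20.5% did. Over all 25 lists drawn up from gene function, 128 of the 187 genes with an shTRA2A peak had an shTRA2A-only one, 68.4% (61.3 to 75%), a share like the one over all genes. No list was tested.

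RNA-binding proteins of the hnRNP and FET families coat nascent transcripts and steer splicing. Of 26 listed, 21 had a peak in any list, 18 an shTRA2A peak and 13 an shTRA2A-only peak, 61.9% of the 21 and 72.2% of the 18, beside 20.5% and 67.0% over all genes, and 4 of the 13 had no peak in another list. HNRNPA2B1, described as a nuclear m6A reader, had 3 shTRA2A peaks, against 1 shMETTL3 and 0 shNC peaks. Those at chr7:26195792-26195841 (score 14.0) and chr7:26195867-26196407 (score 13.5) were shTRA2A-only, 25 nt apart, in the middle of the gene. The third, at chr7:26193274-26193599, was inside the shMETTL3 peak.

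HNRNPDL, with no peak in another list, had 1 of 50 nt in the middle of the gene (score 10.9), and HNRNPR had 1 of 75 nt (score 8.93), 250 nt from the nearest peak of another list. SR proteins and SR-like regulators, the family of TRA2A itself, had an shTRA2A-only peak in 10 of the 14 genes with an shTRA2A peak, 71.4%. Of the 21 with any peak these 10, TRA2A among them, were 47.6%. Over all genes these shares were 67.0% and 20.5%, and the differences were not tested. The best of the 10 by score were SRRM1, a splicing coactivator (score 12.9, a 1934 nt span), ACIN1 (score 11.8), RBM25 (score 9.54) and SRSF11 (score 8.88). All were in genes with 4 or 5 shNC peaks.

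The targeted genes and those in the series title gave little. TRA2A had 1 peak in all lists together, a 50 nt shTRA2A-only peak at chr7:23531618-23531667 (score 7.57), 339 nt from the 5′ end of the gene by its midpoint. Peak lists hold no transcript levels, so they do not show how far TRA2A was reduced. METTL3 had no peak. In the IFIT family, whose products bind viral RNA, IFIT1 had the only shTRA2A-only peak, at chr10:89403424-89403473 (score 7.72), 25 nt from an shNC peak that ends at position 89403398. IFIT2, IFIT3 and IFIT5 had none and no shTRA2A peak of any kind. The 1 shTRA2A peak of EGFR was on peaks of both other lists and so was not taken.

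The m6A machinery was listed as writers and as demethylases and readers. Among writer complex and other methyltransferase genes 2 of 4 with an shTRA2A peak had an shTRA2A-only one, RBM15B (score 7.81) and CBLL1 (score 7.36), both adaptor subunits of the writer. Of demethylases and readers, 4 of 5 had one, 80.0%, beside the 67.0% over all genes with an shTRA2A peak. They were FXR1 (score 12, a span of 5060 nt), PRRC2B (3 peaks, best score 11.5), the nuclear reader YTHDC1 (score 11.2) and PRRC2C (3 peaks, best score 8.13), and all 4 genes had peaks in another list. PRRC2C had 10 shMETTL3 and 16 shNC peaks.

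Cytoskeletal linkers were counted likewise. All 13 of the spectraplakin and linker genes with an shTRA2A peak had an shTRA2A-only one, out of 19 with any peak, 68.4%, with 28 such peaks between them. Over all genes these shares were 67.0% and 20.5%. The differences were not tested, and no allowance was made for gene length or for the number of peaks per gene. Beside PLEC and DST the 13 genes included SPTBN1, a spectrin with 3 (best score 12.7), SPTAN1, its partner subunit (score 9.94), and UTRN, the dystrophin relative utrophin (score 9.61). Matrix and adhesion genes had an shTRA2A-only peak in 12 of 17, 70.6%, near the 67.0% over all genes. Of the 29 with any peak 41.4% had one, beside 20.5% over all genes, which was likewise not tested. LAMA4, a laminin chain (score 13.6), had 1 shNC peak, while THBS1, the matricellular protein thrombospondin 1 (score 9.28), had a peak in no other list. COL5A2, a fibrillar collagen (score 8.83), had 7 shNC peaks.

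Endocytosis and recycling genes had an shTRA2A-only peak in 9 of 12, 75%, beside 67.0% over all genes. Of the 27 with any peak 33.3% had one, beside 20.5% over all genes. In 6 of the 9 no other list had a peak, beside 36.5% of all genes with an shTRA2A-only peak. With so few genes none of these shares is shown to differ from the one over all genes. Beside COPG2 the 6 genes were RAB5B, an early endosome GTPase (score 8.94), EHD4, a recycling ATPase (score 8.07), SNX27, a retromer-linked sorting nexin (score 8), HGS and STAM2. Receptor and RAS signalling genes had one in 6 of 7, out of 26 with any peak, 23.1%, beside 67.0% and 20.5% over all genes. They included PIK3R2, a PI3-kinase subunit (score 9.03), AKT2 (score 7.72) and CBLB, a ubiquitin ligase of receptors (score 7.54). Of 28 interferon-stimulated genes with any peak 5 had one, 17.9%, and of the 7 with an shTRA2A peak 71.4% did, both near the shares over all genes. Their best scores were in GBP2, a guanylate-binding protein (8.86), and ZC3HAV1, an antiviral zinc finger protein (8.37). The GBP2 peak begins at the base after an shNC peak, on the edge of the rule.

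Chromatin, repair and glial genes with an shTRA2A peak had shares below 67.0%. Histone methylation enzymes had one in 9 of 15, led by KDM5C, a demethylase (score 13.3), and remodellers and acetyltransferases in 12 of 21, 57.1%, while of genes with any peak these lists had 28.1% and 34.3%, above the 20.5% over all genes. The remodellers included SMARCC2, a remodelling complex subunit (score 8.40). DNA repair and replication genes had 3 of 8, 37.5%, RIF1 (score 8.03), RAD50 (score 7.76) and PRKDC (score 7.65). The RAD50 peak ends at the base before an shMETTL3 peak, on the edge of the rule. Glial and mesenchymal markers had 3 of 9, 33.3%, NOTCH2 (score 9.78), SOX2, a neural stem cell factor (score 9.31), and ZEB2 (score 7.24). Of genes with any peak the repair list had 14.3% and the glial list 17.6%, beside 20.5% over all genes. With so few genes the shares of genes with an shTRA2A peak are not shown to differ from 67.0%.

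Smaller groups followed, to be read beside the 67.0% over all genes with an shTRA2A peak. With so few genes none is shown to differ from it. Centrosomal and golgin genes had 10 of 13, led by GOLGA4 (score 12.6), with all 10 in genes that another list holds. Of all genes with an shTRA2A-only peak 36.5% had no peak in another list. Immediate early factors had 1 of 1, JUN (score 7.63), of 11 with any peak. Cell cycle genes had 3 of 4, MKI67 (best score 8.98), TPX2 (8.62) and CCND1 (7.38), translation factors 3 of 4 with EIF3A (10.3) first, chaperones 2 of 4 with HSP90AB1 (6.24) and DNAJA1 (4.69), and energy metabolism 2 of 2 with PFKL (8.6) and SLC16A1 (7.38). Long regulatory RNAs had 4 of 6, TUG1 (7.95), MEG3 (7.55), SNHG16 (6.84) and MIR100HG (4.76). Of markers of other cells, 2 of 15 neuronal, 1 of 10 oligodendrocyte, 0 of 14 microglial and blood and 0 of 8 endothelial genes had a peak in any list. Over all annotated genes, 20052 coding and 18330 long non-coding, 6105 had one. With so few markers none of these shares is shown to differ from that over all genes. Of the markers the neuronal MAP2 (score 9.32) alone had an shTRA2A-only peak. GFAP and other glial markers are not read as levels here, because a peak needs both the transcript and its mark.

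**Figure D5:**
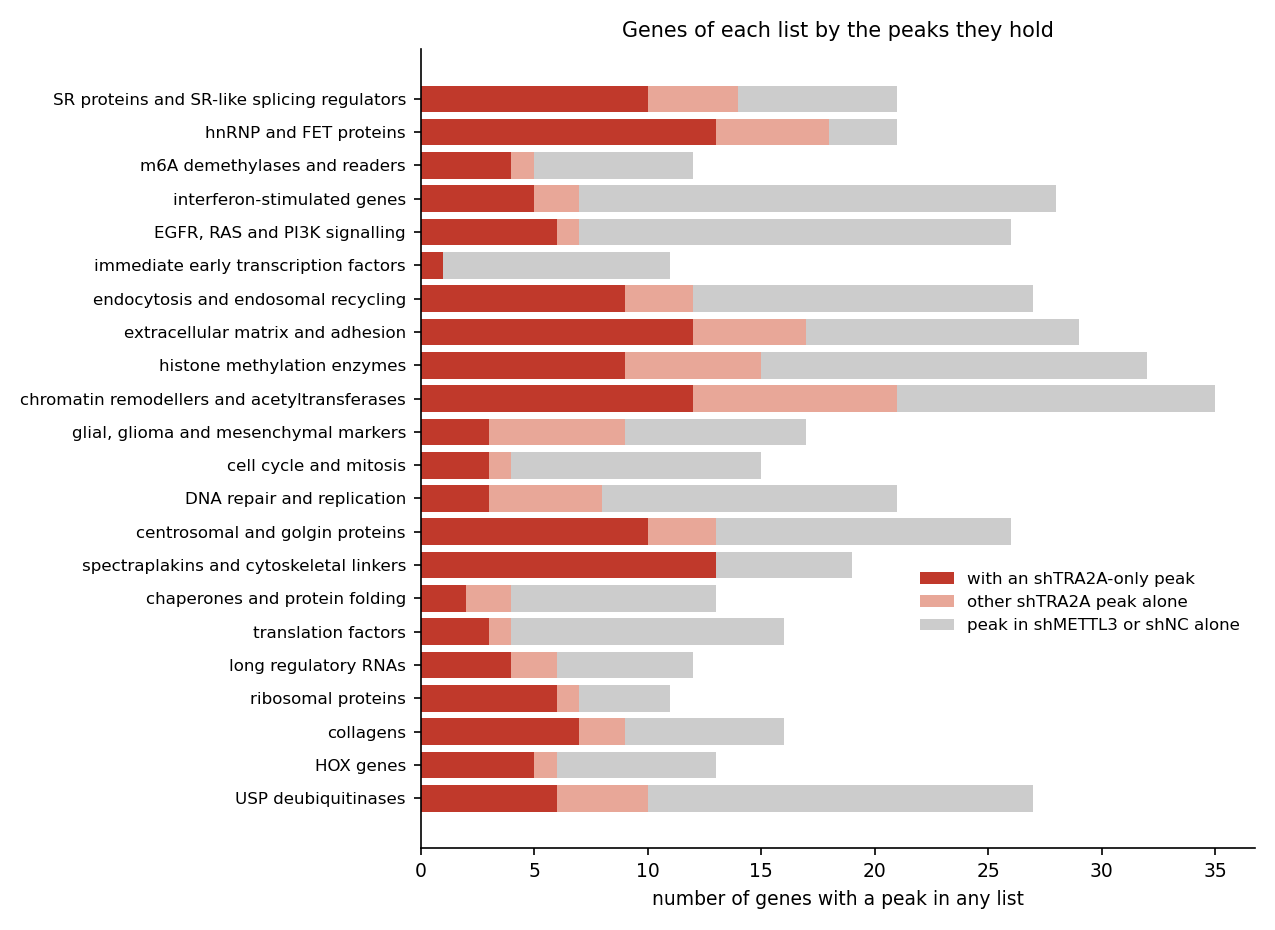
Number of genes per list with a peak in any list, for lists with 10 to 60 such genes, split into genes with an shTRA2A-only peak, with another shTRA2A peak alone, and with peaks in shMETTL3 or shNC alone. The hnRNP and FET list has 13, 5 and 3 genes in these parts.

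The long non-coding genes with the best shTRA2A-only scores after GPR84-AS1 and SHROOM3-AS1 were ZMYM4-AS1 (score 11.3, a 6972 nt span), NAV2-AS2 (score 10.7, 4851 nt) and MIR570HG (score 9.05, 3015 nt). The first pair of these had no peak in another list. Long non-coding genes held 4.51% (3.55 to 5.65%) of the shTRA2A-only peaks, 2.80% (1.93 to 3.94%) of the other shTRA2A peaks, 4.23% (3.58 to 4.95%) of the shMETTL3-only peaks and 3.56% (3.14 to 4.02%) of the shNC-only peaks. The intervals of the shTRA2A-only peaks overlapped all of these.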

How the data were processed

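Per the labels' protocols, total RNA was fragmented and both the immunoprecipitated and the input libraries came from a strand-keeping kit, read from both ends. HISAT2 2.2.1, SAMtools, featureCounts 2.0.1 and GRCh38 appear in the submitters' processing notes. The authors deposited peak lists of 12 columns, of which column 5 is a score per peak. A further list, whose name matches no label, equals the shTRA2A list byte for byte and was not used.

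Overlaps were computed in Python 3.11.15 (pandas 2.3.3, numpy 2.4.6, intervals with scipy 1.17.1). The scripts were checked on simulated data, and bedtools 2.31.1 found the same 1595 peaks. Gene bodies came from RefSeq (GRCh38.p14), 20052 of them coding and 18330 long non-coding, and strands from its promoter table, for 15841 and 11461 of these. A peak went to the coding gene it touches on its strand or of unknown strand, the innermost where several hold it, otherwise likewise to a long non-coding gene. Coordinates count from 1.

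The members and gene lists were chosen with earlier results of these data known. Of 31 lists, 6 families (ZNF, ribosomal protein, collagen, HOX, SLC and USP genes) were added after the data were seen. Named are the 12 genes with the best shTRA2A-only score without and the 12 with a peak in another list, the 10 with the most such peaks, 5 long non-coding genes, up to 4 per list and 7 genes named whatever their values. Genes with a LOC number for a name were skipped, 1 among those with a peak in another list and 2 among the long non-coding. Edge examples, genes of the sequences shown and genes named without a value were chosen after their values were seen. A few genes that this rule takes are not reported here.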

Additional observations from a re-analysis of the deposited data

How the results depend on the processing

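Of 31 alternatives to the processing, 19 left the value within its interval or, for the count of peaks, within 1.5 times. With only the better-scoring 50% of the shTRA2A list, 606 of 1369 peaks were shTRA2A-only, 44.3%. Of these 2.15% had an opposite-strand peak in another list, 28.4% were in genes without another peak and 43.6% were irregular, and 52.7% of listed genes with an shTRA2A peak had one. With regular peaks alone in every list the count was 1051 of 1822, with 0.666% on an opposite-strand peak, 36.6% in genes without another peak and 9.61% near the 3′ end. When peaks within 100 nt counted as found, 1393 were left, 38.5% of assigned peaks were in genes without another peak and 59.4% of listed genes had one. Within 500 nt of the 3′ end lay 2.8% of peaks. Fewer peaks enter the first 2 settings by construction. The median score stayed between 7.86 and 7.88. No paired analysis was possible because each condition has 1 list. Depth per library is unknown, so how many of these peaks passed a threshold by little cannot be measured.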

Other observations

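Gene families added after the data were seen are given as counts, to be read beside the 67.0% over all genes with an shTRA2A peak. ZNF genes had an shTRA2A-only peak in 40 of 57 with an shTRA2A peak, 70.2%, after ZNF841 led by ZNF217 (score 13.4), ZNF592 (score 10.5) and ZNF12 (score 10.3). Of 83 ribosomal protein genes 11 had a peak in any list. Over all annotated genes, 20052 coding and 18330 long non-coding, 6105 did. Of the 7 ribosomal protein genes with an shTRA2A peak 6 had an shTRA2A-only one. They were led by RPL3 (score 8.10) and RPL4 (score 8.08), neither with a peak in another list. Collagens had 7 of 9, HOX genes 5 of 6, SLC transporters 16 of 26 and USP deubiquitinases 6 of 10. None of these families was tested, and most have few genes with an shTRA2A peak. In SLC7A11, the cystine transporter, both shTRA2A peaks were spans (7299 and 1531 nt, scores 8.15 and 7.63) and no other list had a peak.

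Neighbouring shTRA2A-only peaks of the same gene and strand had scores within 1% of each other in 26 of 238 cases, 10.9% (7.26 to 15.6%). The median gap between these 26 pairs of neighbours was 11800 nt. GPR84-AS1, SHROOM3-AS1 and TMEM45A are examples. The quartiles of all shTRA2A-only scores were 7.54 and 8.34, so peaks of unrelated genes can have scores this close too. How often they do was not measured, so nothing is read from the share.

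Spans of 3 shTRA2A-only peaks contain a microRNA hairpin on their strand, MIR455 in COL27A1 (3403 nt, score 7.54), MIR6509 in WDR91 (1136 nt, score 7.56) and MIR6883 in PER1 (2231 nt, score 8.34).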
